A study of Homo sapiens with 4 samples.

Results

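The genes described here are 10 cyclins and cyclin-dependent kinases (CDKs) that act in the G1 and S phases of the cell cycle and at entry into mitosis. They are the D-type cyclins CCND1, CCND2 and CCND3, the E-type cyclins CCNE1 and CCNE2, cyclin A2 (CCNA2), cyclin B1 (CCNB1), and the kinases CDK2, CDK4 and CDK6. They were taken by name from the 29655 gene names that each count table lists. All 10 were among the 11902 protein-coding genes tested. The RNA-seq libraries are labelled as UMSCC74B, an established line of squamous carcinoma of the head and neck, and as wild type. Of the 4 libraries, 2 came from cells given a control shRNA and 2 from cells given a PRMT5 shRNA, all collected after 72 h. The labels describe plasmid transfection and the methods describe lentiviral particles, and only 1 cell line was used. The labels do not say whether replicates were separate cultures, so the p-values measure the spread between these libraries, which may be technical.

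D-type cyclins pair with CDK4 or CDK6 in G1 and phosphorylate the retinoblastoma protein, which releases E2F transcription factors. E2F factors in turn drive transcription of the E-type cyclins, cyclin A2 and CDK2. Cyclin E with CDK2 starts S phase, cyclin A2 with CDK2 carries cells through it, and cyclin B1 with CDK1 drives mitosis. Squamous carcinomas of the head and neck often carry extra copies of CCND1 and lose the CDK4/6 inhibitor encoded by CDKN2A. PRMT5 is an arginine methyltransferase that acts on histones, splicing factors and other proteins.

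Total estimated counts ranged from 52185289 to 65964558 per library, with 71.5% to 81.4% of them on protein-coding names. Ribosomal RNA names took 14.2% to 15.3% of the counts in control and up to 26.2% under the PRMT5 KD label, in the first of those libraries. The transcript of the targeted gene, PRMT5, was measured at 94.3 and 84.3 CPM (counts scaled by library size and TMM factor) in the control libraries. Under the PRMT5 KD label it reached 132 and 150 CPM. The log2 fold change was 0.66 (standard error 0.12, edgeR FDR = 0.00549), so PRMT5 RNA was higher where the label says knockdown. This call was lost without the second control library (0.58, FDR = 0.0677). RNA counts do not measure the protein, and every direction below is by the libraries' labels. An exchange of labels would turn every direction, and the PRMT5 counts do not settle whether one took place.

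The defining squamous epithelial markers KRT5, KRT6A and CDH1 were at or near 0 in all 4 libraries, and EPCAM reached at most 1.00 CPM. KRT17 was at 0.126 and 0.120 CPM in control and at 1.11 and 1.48 CPM under the PRMT5 KD label. KRT14 had 0 counts in each control library and was at 0.231 and 0.456 CPM under the PRMT5 KD label. None of these 6 markers passed the filter on low values, so none was tested. Of 8 such markers, 2 were tested, TP63 and DSG3, and each was lower under the PRMT5 KD label (log2 fold changes -1.35 and -0.85). TP63 was low, at 5.51 and 6.60 CPM in control and 1.74 and 3.01 CPM under that label. Its test may therefore rest on the control group alone passing the filter on low values. All 6 fibroblast markers examined (COL1A1, COL1A2, COL3A1, PDGFRB, DCN and LUM) were also lower. Their summed level was 629 and 727 CPM in control against 87.6 and 97.2 CPM under the PRMT5 KD label. Among immune markers, CD3E was at 0 throughout, PTPRC was at or near 0 and CD68 was higher (0.63). Of 3 endothelial markers, 1 was tested, PECAM1, and it was lower (-5.27), with 14 and 7 counts under the PRMT5 KD label, so that it passed the filter on low values only through the control group. CDH5 and VWF did not pass it. Of 5 keratinocyte differentiation markers, IVL, KRT1 and SPRR1B were at 0 and TGM1 reached at most 2.72 CPM. KRT10, the only one tested, was not called (-0.39). The part of these marker changes in the results below was not tested. In bulk RNA, fewer cells of one type and less RNA per cell cannot be told apart. The epithelial markers at or near 0, beside these fibroblast marker levels in control, are unlike a squamous epithelial line. TP63 and DSG3 were detected, and the identity of the cells was not tested.

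Under the PRMT5 KD label, 8 of the 10 genes were called higher, 1 was called lower and 1 was not called. The gene called lower, CCND2, passed the filter on low values only through the control group. Calls rest on the quasi-likelihood test of edgeR, adjusted over all genes tested, with an FDR below 0.05 and a log2 fold change of 0.5 or more in size. Over those 11902 genes, 45.5% were called, with 21.2% higher and 24.3% lower, so calls in either direction were common. The median log2 fold change was 1.26 for the 10 genes and -0.01 for all genes tested. The control and PRMT5 KD libraries overlapped for CDK6, the gene that was not called. Overlap was not counted over all genes tested, so its absence in the other genes is description only. Scaling by total counts alone moved the median of all genes up by 0.18 on the log2 scale. It changed the split over all genes from 2521 higher and 2894 lower to 3507 higher and 2200 lower, while the 10 genes stayed at 8 higher and 1 lower. Without the second control library, 3103 genes were called in place of 5415, and 9 of the 10 genes were still called.

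**Figure D1:**
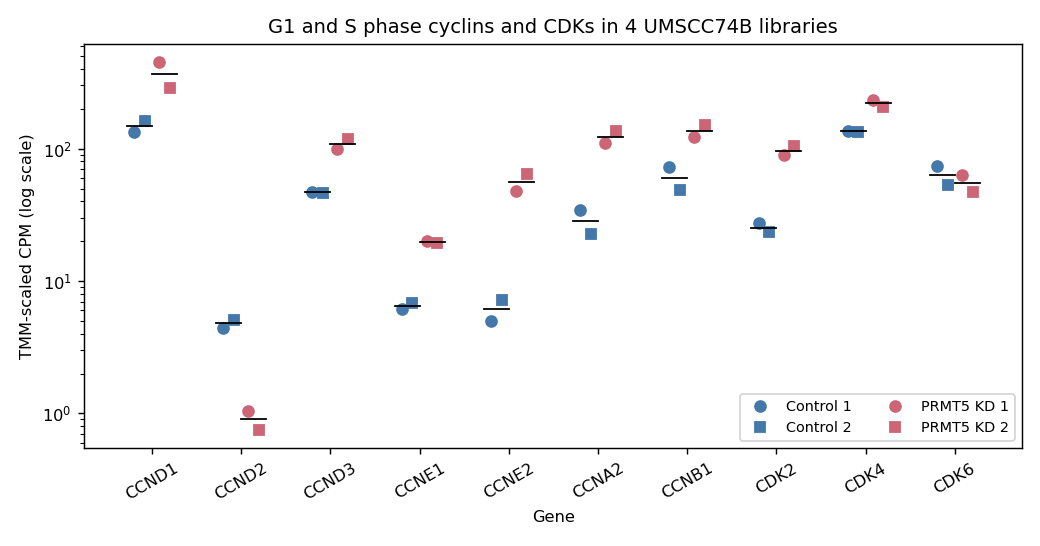
TMM-scaled CPM (log axis) of the 10 genes in each library, with control in blue and libraries labelled PRMT5 KD in red (circles, replicate 1, squares, replicate 2). Black bars are group means of 2 libraries. In it, 8 genes sit higher under the PRMT5 KD label, CCND2 sits lower, and the CDK6 libraries overlap.

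CCND1 encodes cyclin D1, the D-type cyclin most often amplified in squamous carcinomas of the head and neck. It lies on the plus strand of chromosome 11 of GRCh38, from 69641156 to 69654474. CCND1 was at 132 and 162 CPM in control and at 449 and 286 CPM in libraries labelled PRMT5 KD. The groups did not overlap, but the first PRMT5 KD library was 1.57 times the second, the widest gap between replicates among the 10 genes. The means were 147 ± 20.8 and 367 ± 115 CPM (SD, n = 2 each). CCND1 rose by a log2 fold change of 1.32 (standard error 0.24, edgeR FDR = 0.00659). Its 95% interval ran from 0.72 to 1.92. Without the first control library, the CCND1 call was lost (1.18, FDR = 0.0525).

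CCND2, which encodes cyclin D2, was the only one of the 10 genes called lower. It lies on the plus strand of chromosome 12, from 4269771 to 4305353. The control libraries held 176 and 256 counts of CCND2, and those labelled PRMT5 KD held 50 and 36. The exact 95% Poisson intervals, which cover counting error only, were 151 to 204 and 226 to 289 in control. Under the PRMT5 KD label they were 37.1 to 65.9 and 25.2 to 49.8. The control intervals lie entirely above the other pair. On the CPM scale CCND2 went from 4.45 and 5.12 to 1.05 and 0.753, a ratio of means of 5.30 in favour of control. This is a log2 fold change of -2.40 (standard error 0.28, edgeR FDR = 0.00104), and the 95% interval ran from -3.08 to -1.73. It ranked 11652 of 11902 from the highest fold change. At this level CCND2 passed the filter on low values only through the control group, where it was high. Its call, rank and FDR are therefore description and not support. With no filter on low values its log2 fold change was -2.35. When the filter was based on the counts of all names, CCND2 fell out and was not tested.

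CCND3 encodes cyclin D3 on the minus strand of chromosome 6, from 41934934 to 42050357. Its control libraries were nearly equal, at 47.2 and 46.5 CPM. The libraries labelled PRMT5 KD held 99.1 and 117 CPM. The log2 fold change of CCND3 was 1.21 (standard error 0.12, FDR = 0.000711), about the size of the CCND1 change but with closer replicates.

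To compare levels between genes, CPM was divided by the length of all annotated exons in kilobases. On this scale the 3 D-type cyclins together went from 39.6 to 96.1 CPM per kb, a ratio of 2.42. CCND1 made up 76.1% and 79.6% of that level in control and 84.5% and 74.6% in libraries labelled PRMT5 KD. CCND3 made up 22.4% and 18.9% in control against 15.4% and 25.3%. The shares of CCND1 and CCND3 therefore overlapped between groups, and no shift between these genes was seen beyond the spread of the libraries. The size of these shares depends on the length used. With the longest transcript, the mean share of CCND3 was 35.7% in control and 35.1% in libraries labelled PRMT5 KD. The share of CCND2 was small in every library, at 1.52% and 1.50% in control and 0.118% and 0.117% in libraries labelled PRMT5 KD. With 2 libraries against 2, an exact permutation test of a share cannot give a p below 0.333, so shares were described and not tested.

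CCNE1, which encodes cyclin E1, lies on the plus strand of chromosome 19, from 29811991 to 29824312. CCNE1 was at 6.19 and 6.84 CPM in control and at 20.2 and 19.4 CPM under the PRMT5 KD label. Its replicates were within 1.10 times of each other in control and 1.04 times under the PRMT5 KD label. CCNE1 rose by 1.60 on the log2 scale (standard error 0.14, edgeR FDR = 0.000512).

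CCNE2 encodes cyclin E2, on the minus strand of chromosome 8, and had the largest rise of the 10 genes. It was at 5.03 and 7.18 CPM in control and at 47.8 and 63.9 CPM in libraries labelled PRMT5 KD. The means were 6.10 ± 1.52 and 55.8 ± 11.4 CPM (SD, n = 2 each), a ratio of 9.15. The log2 fold change of CCNE2 was 3.19 (standard error 0.24, edgeR FDR = 0.000416), with a 95% interval from 2.61 to 3.77. It ranked 68 from the highest fold change among the 11902 genes tested. The spread between control replicates, a ratio of 1.43, was far smaller than the difference between groups.

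The balance between the E-type cyclins moved toward CCNE2. Per length of exon, CCNE1 was higher than CCNE2 in control (2.65 against 1.39 CPM per kb) and lower under the PRMT5 KD label (8.04 against 12.7 CPM per kb). CCNE2 supplied 31.3% and 37.0% of the E-type cyclin level in control. It supplied 57.0% and 64.9% under the PRMT5 KD label. The libraries did not overlap, which is description only with 2 libraries against 2. The sum of both genes went from 4.03 to 20.7 CPM per kb, a ratio of 5.14, against 2.42 for the D-type cyclins. With the length of the longest transcript in place of all exons, the mean share of CCNE2 was 35.2% in control and 62.0% in libraries labelled PRMT5 KD. By counts without length it was 44.8% and 51.2% in the control libraries and 70.3% and 76.7% in those labelled PRMT5 KD. The order of CCNE1 and CCNE2 in control therefore depends on the length used.

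**Figure D2:**
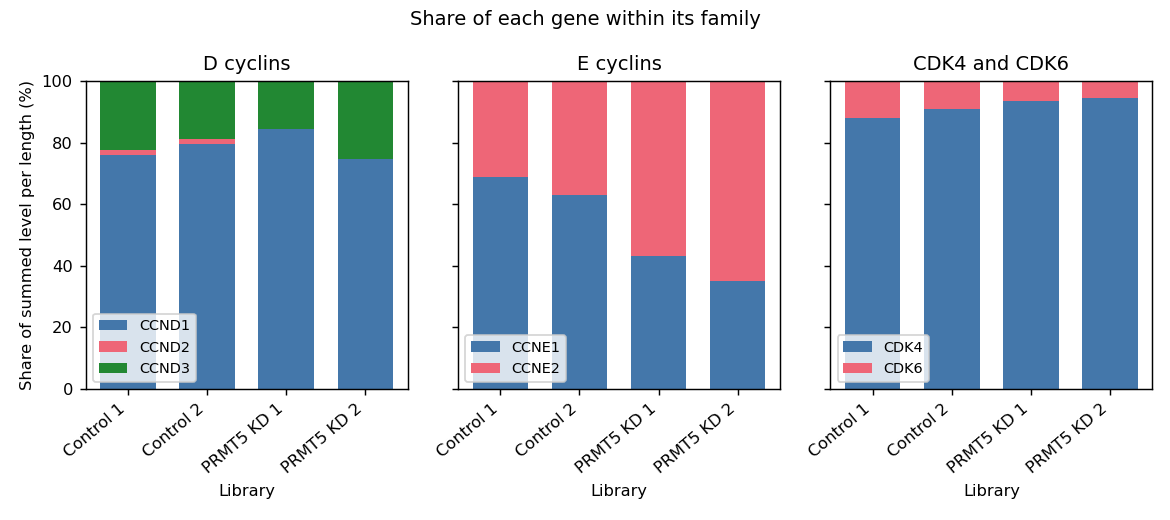
Share (%) of the level per length of exon that each gene contributed within the D-type cyclins, the E-type cyclins and the CDK4 and CDK6 pair, 1 stacked bar per library. CCNE2 moves from 31.3% and 37.0% to 57.0% and 64.9%, while the CCND1 and CCND3 shares overlap between groups.

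CCNA2 encodes cyclin A2, the partner of CDK2 in S phase and of CDK1 in G2, on the minus strand of chromosome 4 from 121816444 to 121823883. CCNA2 was at 34.3 and 22.6 CPM in control and at 110 and 137 CPM under the PRMT5 KD label. The first control library was 1.51 times the second, and both stayed well below the PRMT5 KD libraries. On the log2 scale CCNA2 rose by 2.12 (standard error 0.23, edgeR FDR = 0.00126), second to CCNE2 among the genes called higher.

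CCNB1 encodes cyclin B1, which acts at mitosis and is included as the late cyclin, on the plus strand of chromosome 5 from 69167135 to 69178245. CCNB1 was at 72.3 and 48.5 CPM in control and at 122 and 150 CPM under the PRMT5 KD label. As for CCNA2, the first control library was the higher one, by a ratio of 1.49. The log2 fold change of CCNB1 was 1.18 (standard error 0.22, edgeR FDR = 0.00699), with a 95% interval from 0.63 to 1.72. This interval lies below the estimate for CCNA2.

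The promoters of these late cyclins are printed because they carry the CCAAT boxes and the cyclic AMP response element (CRE) long known in them. The bases come from RefSeq on GRCh38.p14, upstream of each start and outside every exon annotated in GENCODE release 44, read 5′ to 3′ on the gene's strand. Capitals mark the motif letters that were searched, on either strand, and the start site counts as 0.
CCNA2, chr4:121823914-121823973, minus strand, bases -90 to -31: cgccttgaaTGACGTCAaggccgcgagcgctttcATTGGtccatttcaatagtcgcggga
CCNB1, chr5:69167040-69167119, plus strand, bases -110 to -31: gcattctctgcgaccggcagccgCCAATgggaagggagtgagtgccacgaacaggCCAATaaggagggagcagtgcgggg
The CCNA2 window holds TGACGTCA from base -81 and a reverse-strand CCAAT, read as ATTGG, from base -56. The CCNB1 window holds CCAAT at -87 and at -55.

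Promoter windows were found in RefSeq for 6 of the 10 genes (CCND3, CCNE1, CCNA2, CCNB1, CDK4 and CDK6), with 9 start sites in all. CCAAT was present in 34.6% of the 35116 promoters of the same length. TGACGTCA was present in 1.85% of them, and CACGTG, the E-box that MYC family factors bind, in 7.26%. CDK4 held CACGTG at -216, -196 and -101, CCNB1 held it at -196 and CDK6 at 30. CCND3 held CCAAT at 2 of its 3 starts. The E2F letters searched (TTTCCCGC, TTTCGCGC, TTTGCCGC and TTTGGCGC) were in none of the 9 windows and in 3.31% of all promoters, and their absence here says only that these exact letters are not in these windows. The motifs do not overlap each other in the printed windows, and a match is a description of letters and not of binding.

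CDK2, the partner of cyclins E and A, had the largest change of the 3 kinases. It lies on the plus strand of chromosome 12, from 55966781 to 55972789. CDK2 was at 27.3 and 23.3 CPM in control and at 89.3 and 104 CPM in libraries labelled PRMT5 KD. Its log2 fold change was 1.93 (standard error 0.14, edgeR FDR = 0.000329), the lowest FDR of the 10 genes, and the 95% interval ran from 1.59 to 2.27.

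CDK4, a partner of the D-type cyclins, lies on the minus strand of chromosome 12, from 57747727 to 57756013. It was at 136 and 134 CPM in control and at 234 and 207 CPM under the PRMT5 KD label. The groups did not overlap, and the log2 fold change of 0.70 (standard error 0.12, edgeR FDR = 0.00346) was the smallest of the 8 that were called higher. The 95% interval for CDK4 ran from 0.42 to 0.98, so it reached below the fold change threshold of 0.5. At a threshold of 1, CDK4 was the only one of the 9 called genes that was no longer called.

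CDK6, the other kinase partner of the D-type cyclins, lies on the minus strand of chromosome 7, from 92604921 to 92836573. It was at 73.4 and 53.2 CPM in control and at 62.7 and 46.8 CPM under the PRMT5 KD label. The values of the groups interleave, and replicates differed by a ratio of 1.38 in control and 1.34 in libraries labelled PRMT5 KD. Its log2 fold change was -0.21 (standard error 0.21, edgeR FDR = 0.436), with a 95% interval from -0.73 to 0.31. The interval leaves room for a fall or a small rise. Correcting for length and GC content gave 0.01 and leaving out the first control library gave 0.04, so no direction is given for CDK6.

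CDK4 and CDK6 together went from 48.9 to 75.7 CPM per kb, a ratio of 1.55. CDK6 supplied 12.0% and 9.10% of the pair's level in control and 6.35% and 5.41% in libraries labelled PRMT5 KD. These libraries did not overlap, which is description only. CDK6 itself was not called, while CDK4 was called higher. The size of this share depends on the long CDK6 transcript, and by counts without length the mean share of CDK6 was 31.7% in control and 19.8% in libraries labelled PRMT5 KD.

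**Figure D3:**
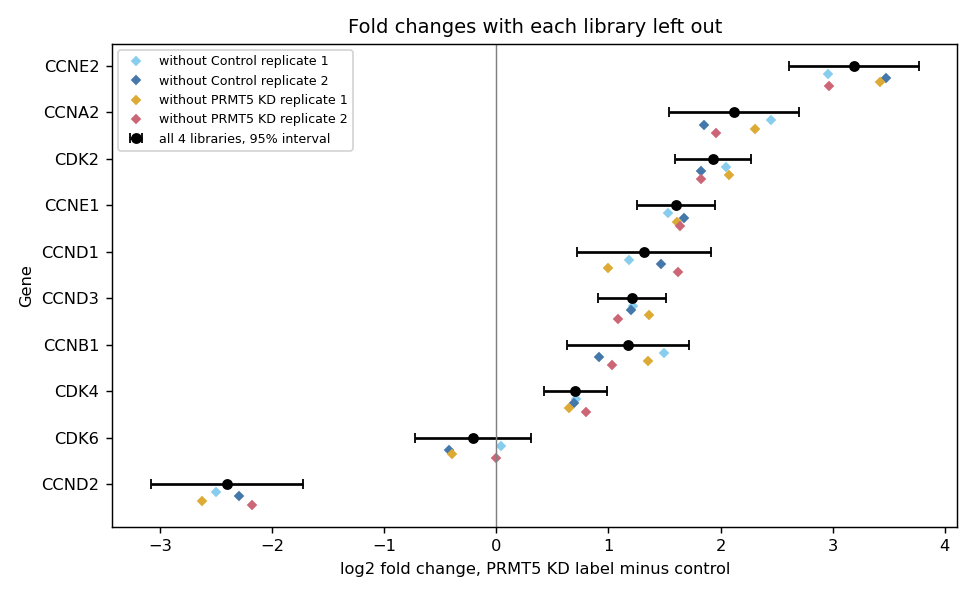
Log2 fold change of each gene (PRMT5 KD label minus control) with its 95% interval over all 4 libraries (black) and the value with each library left out in turn (coloured diamonds). CCNE2 stays between 2.96 and 3.47 and CCND2 between -2.63 and -2.18, while CDK6 lies on either side of 0.

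Ordered by level per length of exon, control libraries ran from CDK4 (43.8 CPM per kb), CCND1 (30.9), CCNB1 (24.8), CCNA2 (10.4), CCND3 (8.13), CDK2 (6.51), CDK6 (5.17), CCNE1 (2.65) and CCNE2 (1.39) to CCND2 (0.599). Under the PRMT5 KD label the order began with CCND1 (77.2 CPM per kb) and CDK4 (71.2), whose libraries overlapped. CCNB1 (56.0), CCNA2 (44.9), CDK2 (24.9), CCND3 (18.8), CCNE2 (12.7), CCNE1 (8.04), CDK6 (4.47) and CCND2 (0.113) followed. In control, the libraries of CCND1 and CCNB1 overlapped, as did those of CDK2 and CDK6. All other neighbours in either order were apart in both libraries on this scale. The order depends on the lengths used. For CCND3, all annotated exons come to 5761 nt and the longest transcript to 2394 nt. CCNE2 moved up 2 places and CDK6 moved down 2 places between the groups, and CCND2 was last in both.

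Several of the 10 genes share genomic sequence with a neighbour on the opposite strand. The library kit keeps strand, but whether strand was used in counting is not given in the sources used here, so reads from such pairs could be mixed. CDK4 exons overlap those of TSPAN31, whose counts went from 1560 and 2373 in control to 544 and 615, the opposite direction to CDK4. CCNA2 exons overlap those of EXOSC9, whose counts went from 762 and 728 in control to 2462 and 2616, the same direction as CCNA2. CCNE2 overlaps INTS8, whose counts lay between 1579 and 2154 in every library. CCNE2 had fewer counts than INTS8 in control, at 199 and 359, and held 2275 and 3055 under the PRMT5 KD label. CDK2 overlaps PMEL, which had at most 141 counts in any library against at least 1082 for CDK2. CCND1 overlaps LTO1, listed as ORAOV1, with 563 to 845 counts against at least 5244 for CCND1. The antisense RNAs CCND2-AS1 and CDK6-AS1 overlap exons of CCND2 and CDK6 in the annotation and were not matched to names in the tables. A protein-coding gene without a symbol also overlaps exons of CCND2, on the same strand, and was not matched either. Strand cannot separate reads of that pair. The part of shared reads in these values was not tested.

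The genes whose pattern over the 4 libraries lay closest to CCNE2, by the root mean square difference of centred log2 CPM, were HIST1H3A (0.0630), HIST1H1A (0.162) and HIST2H2AA4 (0.172). These are replication-dependent histone genes. HIST1H3A was at 1.09 and 1.42 CPM in control and at 9.85 and 14.2 CPM under the PRMT5 KD label. HIST1H1A was very low in control, at 0.253 and 0.280 CPM, so its fold change is uncertain. Histone genes have near-identical copies among which reads can be split, so their single values are uncertain. Closest to CCND2 were DENND6B (0.0434), FBLIM1 (0.0546) and ADAMTS9 (0.0554). FBLIM1, which encodes a protein of actin-based adhesions, was at 122 and 146 CPM in control and at 33.0 and 23.3 CPM. A likeness over 4 libraries in 2 groups describes the values only.

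The other genes of the pathway were counted by list, each by the same test over all genes. Over all genes tested, 45.5% were called, 21.2% higher and 24.3% lower, and each list is to be read beside these shares. Of 15 other cell cycle cyclins and CDKs, 13 were tested, 5 were called higher and 2 lower, and the median log2 fold change was 0.13. The 5 were CCNA1, CCNB2, CCNF, CCNJ and CDK1. CDK1, the mitotic kinase that pairs with cyclins A2 and B1, rose the most, from 36.5 and 23.9 CPM to 109 and 124 CPM (log2 fold change 1.95, FDR = 0.00127). CCNG2, a cyclin linked to cell cycle arrest, was lower (-0.91), and so was CCNI (-0.68). With a correction for length and GC content the split in this list was 4 higher and 3 lower.

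Of 12 CDK activators and phosphatases, all were tested, 8 were called higher and 1 lower, with a median of 0.64. CDC25A encodes the phosphatase that removes inhibitory phosphate from CDK2. It went from 6.14 and 4.36 CPM in control to 59.9 and 61.0 CPM (log2 fold change 3.53, standard error 0.19, FDR = 0.000206), a larger change than that of CCNE2. PKMYT1 and WEE1, kinases that add inhibitory phosphate to CDKs, were also called higher (2.74 and 0.73). SPDYA, a non-cyclin activator of CDK2, was lower (-1.14), at 2.35 CPM or less in every library, and passed the filter on low values only through the control group. Without the first or without the second control library, 6 genes of this list were called higher and 0 lower. With the length and GC correction, 7 were higher and 2 lower.

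Of 11 CDK inhibitors and pocket proteins, 9 were tested, 4 were called higher (CDKN1A, CDKN2C, CDKN3 and RBL1) and 1 lower, with a median of 0.28. CDKN2C, which encodes an inhibitor of CDK4 and CDK6, rose the most, from 10.6 and 9.39 CPM to 27.0 and 29.4 CPM (1.49, FDR = 0.000558). CDKN1C, which encodes p57, was lower (-1.84), and CDKN1A, which encodes p21, was higher (0.79, FDR = 0.0130). RB1, the retinoblastoma gene, was not called (0.28, FDR = 0.0625). CDKN2A and CDKN2B had 0 counts in all 4 libraries, which allows up to 0.0600 to 0.0758 CPM per library, taking 3 counts as the floor. Without the first or without the second control library, 3 genes of this list were called.

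Of 10 E2F and DP factors, all were tested, 7 were called higher and 1 lower, with a median of 0.91. E2F2 went from 2.40 and 2.22 CPM to 19.5 and 20.8 CPM (3.13, FDR = 0.000199). At its low control level, E2F2 may have passed the filter on low values only through the libraries labelled PRMT5 KD. E2F1, the best known activator of CCNE1, CCNE2 and CCNA2 transcription, went from 20.3 and 16.8 CPM to 96.3 and 84.4 CPM (2.29, FDR = 0.000256). TFDP2, a dimer partner of the E2F factors, was lower (-0.55), close to the threshold of 0.5 in size. The list had 7 higher and 0 lower with total counts alone and with the filterByExpr filter or no filter on low values. It also had 0 lower with the replicate block joined to the length and GC correction, without the second control library and without the first PRMT5 KD library.

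Of 19 cyclin turnover genes, all were tested, 8 were called higher and 1 lower, with a median of 0.41. Calls in either direction were about as common in this list as over all genes tested (45.5%). With total counts alone, 12 were called higher and 1 lower. FBXO5, which encodes an inhibitor of the anaphase-promoting complex, rose the most (1.92, FDR = 0.000362). SKP2, the F-box protein that targets the inhibitor p27, was also called higher (1.88). GSK3B, a kinase that marks cyclin D1 for degradation, was lower (-0.97, FDR = 0.00350). CCNF counts in this list and among the other cyclins.

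Transcriptional cyclins and CDKs, most of which are known for acting on RNA polymerase II, served as more distant family members. Of 15 tested, 1 was called higher and 4 lower, with a median of -0.20. CCNK was higher (0.80), and CDK19 (-1.40), CCNL2 (-1.29), CCNL1 (-0.62) and CDK9 (-0.51) were lower. Total counts alone gave 3 higher and 2 lower, and leaving out the first or the second control library gave 3 calls. The difference between this list and the 10 genes was not tested.

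**Figure D4:**
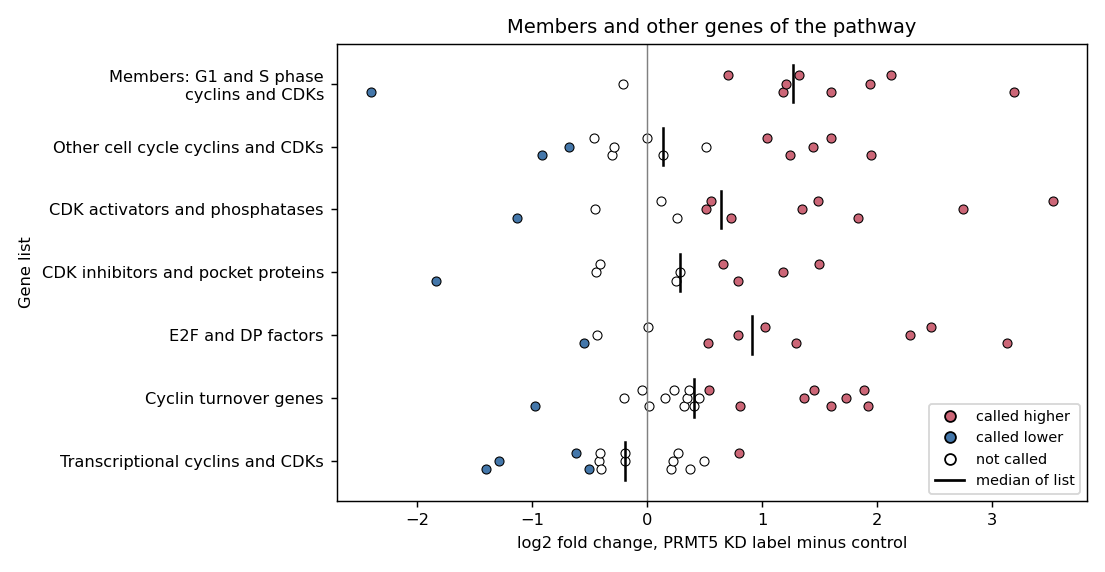
Log2 fold change (PRMT5 KD label minus control) of every tested gene in each list, 1 point per gene, filled red where called higher, blue where called lower and white where not called, with the list median as a bar. The median is 1.26 for the 10 genes described here, 0.91 for E2F and DP factors and -0.20 for transcriptional cyclins and CDKs.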

How the data were processed

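Total RNA of cells labelled UMSCC74B was sequenced from directional libraries on a Singular Genomics G4. The authors deposited estimated counts per gene, 1 table per library, not normalized; 86.0% to 86.8% of the values are whole within 1e-09. The submitters' processing notes name FastQC, Trim Galore, STAR, Salmon, DESeq2 and GRCh38, whereas in the methods FeatureCounts was run on protein-coding genes of Gencode, which the symbols and decimals do not match. No read-level step was repeated.

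Of 29744 entries, 28 with names turned into dates (at most 0.161% of counts) were left out, and rows with the same name were summed. Names were matched to GENCODE release 44 (21877 by symbol, 1149 by gene number, 1569 by synonym, 5060 unmatched), which gave 18955 protein-coding names. After rounding, genes that reached an RPKM of 0.5, over protein-coding totals, in each library of either group entered the test in edgeR 4.0.16 (R 4.3.3, TMM factors 0.934 to 1.09, robust quasi-likelihood, no replicate term). Adjustment was by Benjamini-Hochberg (FDR). Standard errors come from each fold change and its F statistic. The biological coefficient of variation was 0.142. Count intervals and floors hold for counting error alone, since PCR copies are not separate molecules.

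The 10 genes and the lists were chosen with earlier results of these data known. Within lists the genes named are those with the largest and the smallest change and those called in the rarer direction, and for CCNE2 and CCND2 the 3 genes closest in pattern. The other higher genes among the cyclins and the inhibitors, CDKN2A, CDKN2B, RB1, PKMYT1, WEE1, E2F1, SKP2, CCNL1, CCNL2 and CDK9 were named after their values were seen. Alternatives were DESeq2 1.42.0, other scalings, filters, gene sets, dispersions and thresholds, a replicate term, a length and GC correction (splines of 4 degrees of freedom) and leaving out each library. The labels and methods state no pairing. One immune marker is not reported here.

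On simulated data with 11902 genes and 200 changed, edgeR recovered 85% of changes of 1 and 98% of changes of 2 on the log2 scale. Unchanged genes made up 14.08% of the calls, more than the FDR threshold. Far fewer genes were changed in the simulation than were called in the data, so this share may differ in the data. Changes smaller than 1 were not simulated.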

Additional observations from a re-analysis of the deposited data

How the results depend on the processing

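Of 341 values recomputed under the alternatives, 319 were rated as the same. A fold change was rated so if it kept its direction and its side of the threshold. A share was rated so if it kept its direction and moved by less than the replicate spread. A count of called genes was rated so if it stayed within a set ratio of the main count, whatever its split by direction. A fold change threshold of 1 left 2560 genes called (1032 higher, 1528 lower), and it left 3 CDK inhibitors and pocket proteins, 5 E2F and DP factors and 2 transcriptional cyclins and CDKs, since it is stricter by construction. CDK6 turned to 0.0084 with the length and GC correction, to 0.0096 with that correction and the replicate block together, and to 0.042 without the first control library. For the shares, the difference of CCND2 was -1.17 points with the longest transcript and -2.22 points by counts, and that of CDK6 was -3.14 and -11.9 points, which follows from the lengths used.

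With each library left out in turn, where the lone library is assumed to vary like the others, 3103 to 5708 genes were called. The counts were 3 to 5 for CDK inhibitors and pocket proteins and 3 to 6 for transcriptional cyclins and CDKs. The log2 fold changes ranged from 1.00 to 1.62 for CCND1, from -0.42 to 0.04 for CDK6 and from 0.57 to 0.78 for PRMT5. The difference in share ranged from -3.24 to 6.61 points for CCND1 and from -5.22 to 4.63 points for CCND3. The cause of these changes was not tested.

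The replicate block left 5189 genes called (2404 higher, 2785 lower) and changed the call of none of the 10 genes. The deviations of same-numbered libraries had a correlation of -0.1006, which is no sign of pairs, and the crossed pairing, added after seeing the data, gave 5485 calls (2545 higher, 2940 lower). Basing the filter on all names, also added after seeing the data, gave 5296 calls, with 8 of the 9 genes tested called. Depth limits CCND2 most, with 36 to 256 counts per library.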
